A study of Homo sapiens with 24 samples.

Results

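The genes described here are 32 genes of cholesterol and fatty acid synthesis, taken by name from the 57992 genes counted in the series. They are 18 enzymes of the sterol pathway (ACAT2, HMGCS1, MVK, PMVK, MVD, IDI1, FDPS, FDFT1, SQLE, LSS, CYP51A1, TM7SF2, MSMO1, NSDHL, HSD17B7, EBP, SC5D and DHCR7), 6 regulators and carriers of sterols (INSIG1, INSIG2, SREBF1, SREBF2, SCAP and STARD4) and 8 genes of fatty acid synthesis and desaturation (ACLY, ACSS2, ACACA, FASN, ELOVL6, SCD, FADS1 and FADS2), called the fatty acid branch below. The cells were K562, an established human line of chronic myelogenous leukaemia, given doxycycline at 50 ng/ml to switch on CRISPR interference, in which a guide RNA directs a repressor to a promoter. The guide sgDDX3 targets DDX3X, which encodes an RNA helicase with a role in starting translation, while sgGal4 is the control. Samples come from day 0, day 3 and day 14; ribosome footprints and cytosolic RNA were sequenced, 2 libraries being made per group and 24 in all. The labels name doxycycline for all samples, day 0 included, without saying whether the day 0 cells had received it. They also do not say whether a line was 1 clone or whether the 2 libraries of a group came from separate cultures, so every p-value below rests on a spread between libraries that may be technical only.

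Cholesterol is built in the cytosol and the endoplasmic reticulum from acetyl-CoA, by way of mevalonate, the isoprenoid pyrophosphates, squalene and lanosterol. The genes of the pathway are classic targets of SREBP2, the product of SREBF2, a membrane-bound transcription factor that SCAP escorts to the Golgi for cleavage when sterols are low and that the INSIG proteins hold back when sterols are high. SREBP1, the product of SREBF1, acts by the same route and drives mainly the fatty acid genes. Proliferating blood cells need both products for membranes, and can also take cholesterol from serum lipoproteins.

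All 32 genes passed the filter on low counts in both assays, so every one was tested. Total counts ran from 10300000 to 43300000 in RNA and from 6220000 to 15200000 in footprints. Levels are given as CPM, a gene's counts as a rate of all counts in tested genes, after scaling between libraries, and they are not compared between genes because they are not divided by length. Differences are given as log2 of sgDDX3 over sgGal4, each with a standard error (SE), and a gene passed at a Benjamini-Hochberg adjusted p under 0.05 over all genes tested (edgeR quasi-likelihood test). The targeted gene, DDX3X, stood in RNA at 185 and 174 CPM with sgGal4 and at 39.0 and 33.7 CPM with sgDDX3 at day 3, and at 201 and 187 against 134 and 101 CPM at day 14. The log2 difference in RNA was -2.29 ± 0.11 at the first and -0.72 ± 0.10 at the later day (adjusted p = 1.6e-11 and 4.03e-05) and the difference was smaller at day 14 than at day 3 (1.57 ± 0.14 between the days, adjusted p = 7.16e-06). Summed RNA of 7 erythroid markers, the lineage K562 is known for, ranged from 1150 to 1610 CPM over the 12 RNA libraries, with HBG1 at 0.288 CPM or less in each. At day 3 the erythroid genes KLF1 (-0.56 ± 0.10, adjusted p = 0.000786) and HBG2 (-0.38 ± 0.11, adjusted p = 0.0193) were lower in RNA with sgDDX3, and their part in the differences below was not tested. Summed RNA of 5 markers each was 6.6 to 9.50 CPM for lymphoid, 9.27 to 16.3 CPM for myeloid and 0.161 to 2.39 CPM for hepatocyte and adipocyte genes, the last almost all ALB. The ALB difference was already 2.00 ± 0.43 at day 0 (adjusted p = 0.455, groups not overlapping), and it was 2.11 ± 0.45 at day 3 (adjusted p = 0.00275) and 0.84 ± 0.57 at day 14 (adjusted p = 0.37). In bulk samples, fewer cells of a type and less RNA per cell cannot be told apart.

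At day 3 many sterol genes were lower in RNA with sgDDX3. The members that were higher were not a larger share than among all genes. Of the 32 genes, 11 were lower, against 6.39% of all genes tested, and 2 were higher, against 7.68%. The 11 were 9 of the 18 sterol enzymes and, among the regulators, STARD4 and SREBF2, and the 2 that were higher, SCD and FADS1, both belong to the fatty acid branch. The median log2 difference was -0.28 over the sterol enzymes, -0.09 over the regulators and 0.09 over the fatty acid branch, beside -0.01 over all genes tested. Of the sterol enzymes 15 of 18 had a difference below 0, and of the fatty acid branch 2 of 8, against 50.9% of all genes. Leaving out 1 library at a time, which leaves 1 in its group, put the sterol enzyme median at -0.33 to -0.21. That of the fatty acid branch was 0.04 to 0.12. Some calls were lost in those fits, as given per gene below.

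**Figure D1:**
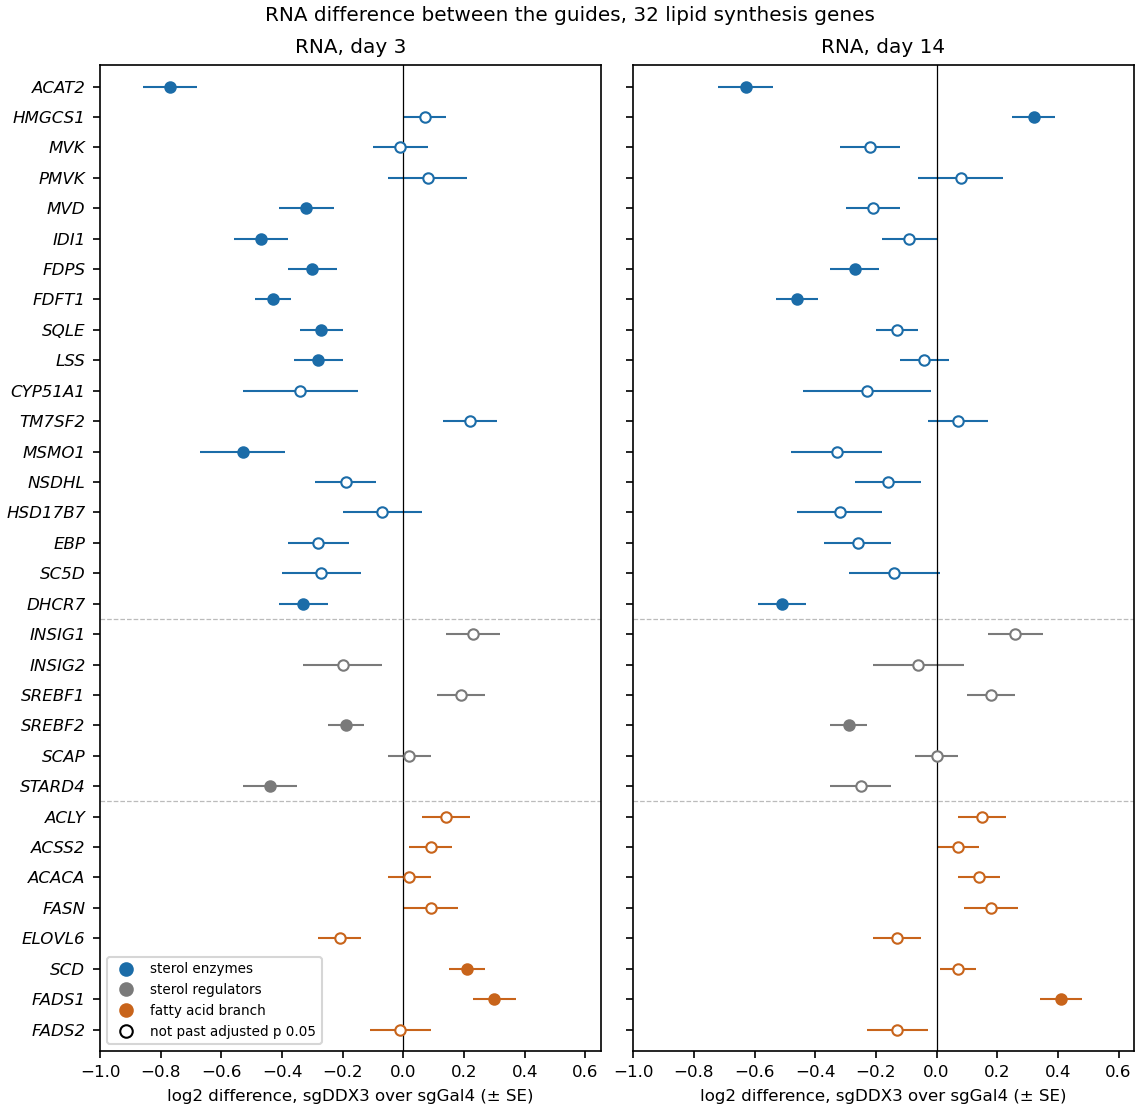
RNA difference between the guides for the 32 genes at day 3 (left) and day 14 (right), as log2 of sgDDX3 over sgGal4 with bars of 1 SE, filled where the gene passed at an adjusted p of 0.05. At day 3 most sterol enzymes (blue) lie left of 0, with ACAT2 at -0.77, while SCD and FADS1 of the fatty acid branch (orange) lie at 0.21 and 0.30.

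The early steps lead from acetyl-CoA to farnesyl pyrophosphate. ACAT2, the cytosolic thiolase that joins acetyl-CoA units, stood in RNA at 92.1 and 103 CPM with sgGal4 and at 57.3 and 56.5 CPM with sgDDX3 at day 3. Both sgDDX3 libraries lay far below both controls, and the difference, -0.77 ± 0.09 (adjusted p = 3.18e-06), was the lowest of the 32. IDI1, the isomerase of isopentenyl pyrophosphate, stood at 67.2 and 81.7 against 53.5 and 52.7 CPM (-0.47 ± 0.09, adjusted p = 0.000814). MVD, which makes isopentenyl pyrophosphate by decarboxylation, stood at 80.3 and 86.2 against 61.5 and 72.6 CPM (-0.32 ± 0.09, adjusted p = 0.015). FDPS, farnesyl pyrophosphate synthase, stood at 75.1 and 84.9 against 62.1 and 68.3 CPM (-0.30 ± 0.08, adjusted p = 0.02). In all 3 the groups did not overlap, but the spread within a guide was wide, with an SD of 10.3 CPM for IDI1 (sgGal4), 7.79 for MVD (sgDDX3) and 6.95 for FDPS (sgGal4). The IDI1 call held in all 9 alternatives, with values from -0.62 to -0.33. The MVD call was lost without replicate 1 of sgDDX3 (-0.19) or replicate 2 of sgGal4 (-0.27), and so was the FDPS call (-0.22 and -0.21). The enzymes between ACAT2 and MVD did not follow. HMGCS1, which makes HMG-CoA, stood at 82.9 and 92.0 against 91.2 and 92.3 CPM (0.07 ± 0.07), MVK, mevalonate kinase, differed by -0.01 ± 0.09 and PMVK, phosphomevalonate kinase, by 0.08 ± 0.13, with adjusted p from 0.584 to 0.953 and overlapping groups.

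From farnesyl pyrophosphate to cholesterol, FDFT1, squalene synthase, stood at 241 and 247 CPM with sgGal4 and at 182 and 179 CPM with sgDDX3. These 4 values left a wide gap between the guides (-0.43 ± 0.06, adjusted p = 9.79e-05). MSMO1, the methylsterol oxidase, stood at 37.8 and 46.4 against 33.1 and 22.2 CPM (-0.53 ± 0.14, adjusted p = 0.0146). Its sgDDX3 libraries differed from each other by more than the guides did at their nearest values, and the call was lost without replicate 2 of sgDDX3 (-0.32) or replicate 2 of sgGal4 (-0.40) and by DESeq2 (adjusted p = 0.0535), while without replicate 1 of sgDDX3 the difference was -0.90. DHCR7, the last reductase of the pathway, stood at 128 and 135 against 99.5 and 110 CPM (-0.33 ± 0.08, adjusted p = 0.00455). SQLE, the oxygenase that turns squalene into its epoxide, stood at 109 and 115 against 91.2 and 94.5 CPM (-0.27 ± 0.07, adjusted p = 0.0123). LSS, lanosterol synthase, stood at 146 and 154 against 118 and 130 CPM (-0.28 ± 0.08, adjusted p = 0.0273). In these 3 genes the sgDDX3 libraries were both below the controls. Each of the 3 calls was lost without replicate 1 of sgDDX3 (DHCR7 -0.26, SQLE -0.24, LSS -0.20) or replicate 2 of sgGal4 (-0.29, -0.23 and -0.24), and that of LSS also without replicate 1 of sgGal4 (-0.32). The 6 other steps did not pass. CYP51A1, lanosterol demethylase, differed by -0.34 ± 0.19, EBP, the sterol isomerase, by -0.28 ± 0.10, SC5D, the sterol desaturase, by -0.27 ± 0.13, NSDHL by -0.19 ± 0.10 and HSD17B7 by -0.07 ± 0.13 (the last 2 act with MSMO1 in removing methyl groups). TM7SF2, a sterol reductase, had a difference of 0.22 ± 0.09 (adjusted p = 0.118), the highest of the sterol enzymes, with both sgDDX3 libraries (40.3 and 35.5 CPM) above both controls (32.9 CPM each). EBP passed without replicate 2 of sgDDX3 (-0.38) or replicate 1 of sgGal4 (-0.45), and SC5D without replicate 1 of sgDDX3 (-0.57).

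Among the regulators, STARD4, a soluble carrier of cholesterol between membranes, stood at 35.5 and 39.5 CPM with sgGal4 and at 28.3 and 26.0 CPM with sgDDX3. The groups were well apart (-0.44 ± 0.09, adjusted p = 0.00169). SREBF2 itself stood at 572 and 556 against 505 and 480 CPM, a small difference of -0.19 ± 0.06 (adjusted p = 0.0411) whose groups did not overlap. That call was lost in 7 of 9 alternatives, among them the fits without replicate 1 of sgDDX3 (-0.23), sgDDX3 replicate 2 (-0.16), sgGal4 replicate 1 (-0.17) or replicate 2 of sgGal4 (-0.21), without the low-count filter (adjusted p = 0.0591), with a replicate block (adjusted p = 0.0567) and with the libraries of that day alone (adjusted p = 0.083). INSIG1, the sterol sensor whose own gene is an SREBP target, did not go with the enzymes: it stood at 99.4 and 125 against 131 and 128 CPM (0.23 ± 0.09, adjusted p = 0.09). Its sgGal4 replicate 2 lay near the sgDDX3 libraries, and without that library the difference passed (0.39, adjusted p = 0.0114). SREBF1 (0.19 ± 0.08), SCAP (0.02 ± 0.07) and INSIG2 (-0.20 ± 0.13) did not pass.

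In the fatty acid branch, FADS1, the delta-5 desaturase of polyunsaturated fatty acids, stood at 232 and 235 CPM with sgGal4 and at 291 and 284 CPM with sgDDX3. All 4 libraries were close within their guide and the guides were well apart (0.30 ± 0.07, adjusted p = 0.00439). SCD, the delta-9 desaturase that makes oleate, stood at 973 and 998 against 1170 and 1110 CPM (0.21 ± 0.06, adjusted p = 0.0201), again without overlap. The SCD call was lost without replicate 1 of sgDDX3 (0.17), sgGal4 replicate 1 (0.19) or replicate 2 of sgGal4 (0.23). The makers of the chain itself did not pass: ACLY, which splits citrate into acetyl-CoA, differed by 0.14 ± 0.08, ACSS2, acetyl-CoA synthetase, by 0.09 ± 0.07, ACACA, acetyl-CoA carboxylase, by 0.02 ± 0.07 and FASN, fatty acid synthase, by 0.09 ± 0.09. FADS2, the delta-6 desaturase, differed by -0.01 ± 0.10. ELOVL6, an elongase of saturated chains, had the lowest value of the branch, at 124 and 132 against 115 and 105 CPM (-0.21 ± 0.07, adjusted p = 0.0611). Without sgDDX3 replicate 1 ACLY passed (0.28, adjusted p = 0.0263).

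**Figure D2:**
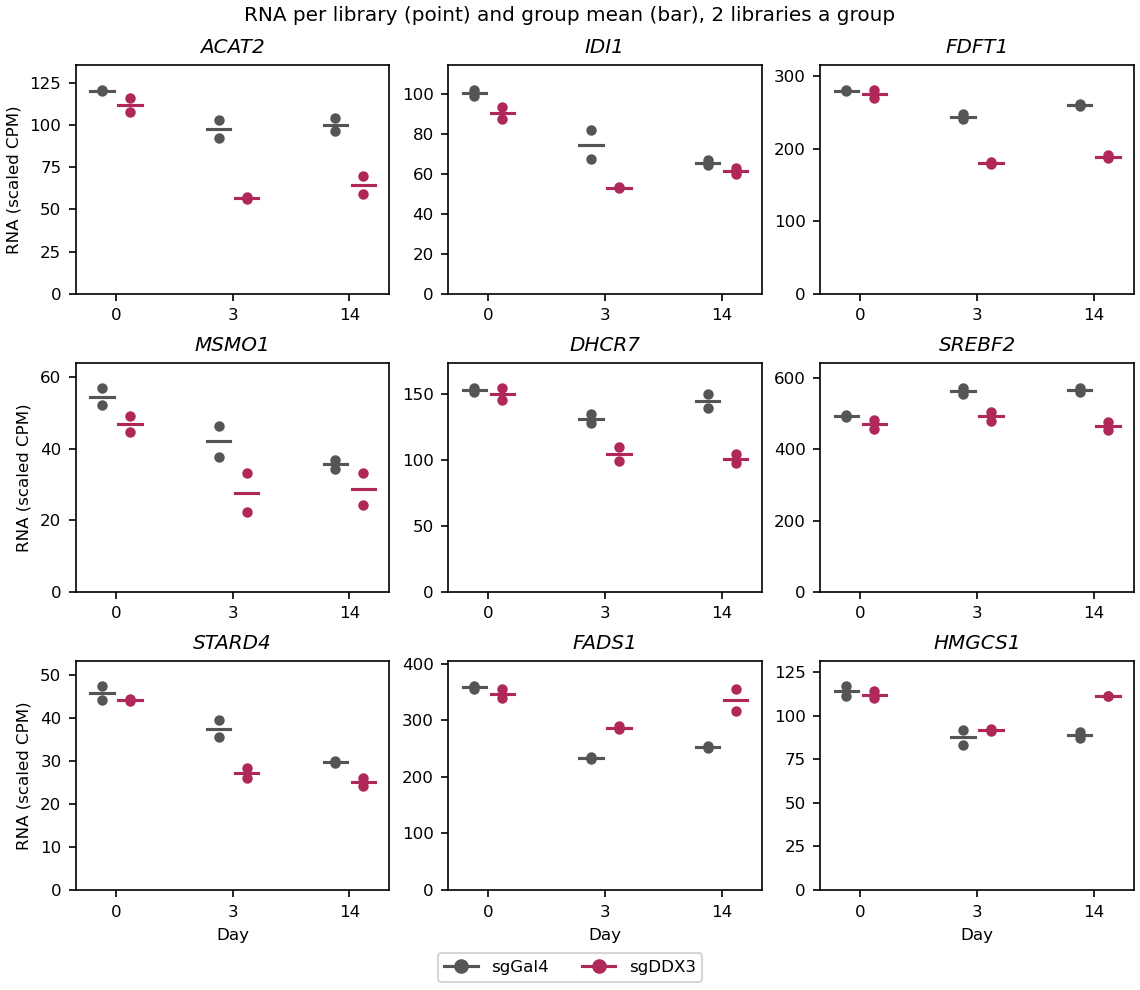
RNA in each library (points, CPM) with the group mean (bar) for 9 genes at day 0, day 3 and day 14, sgGal4 grey and sgDDX3 red. ACAT2, FDFT1, DHCR7 and SREBF2 lie below the control at both later days, IDI1 is apart at day 3 (53.5 and 52.7 against 67.2 and 81.7 CPM) and close at day 14, and FADS1 lies above the control at both.

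Since many of the sterol genes moved together, their promoters were read for the 2 motifs the pathway is known for, the sterol response element and the CCAAT box that the factor NF-Y binds beside it. The windows ran from 250 bases before to 50 after the start site in RefSeq on GRCh38.p14, both strands were searched, and 28 of the 32 genes had one. ACAT2, FDFT1, SQLE and FASN had none. The letters CCAAT were found in 13 of 15 sterol enzymes (86.7%), 3 of 6 regulators (50.0%) and 5 of 7 genes of the fatty acid branch (71.4%), against 39.7% of 27305 genes in the table. The stricter letters TCACNCCAC, one form of the sterol response element, were found in SREBF2 alone of the 28 (3.57%), against 1.39% of genes. The stretches below are shown because they hold the matches of 3 enzymes that were lower (MVD, FDPS and MSMO1), of both regulators that were lower (STARD4 and SREBF2) and of SCD, which was higher. Capitals mark CCAAT, its reverse complement ATTGG, and in SREBF2 the match to TCACNCCAC; the 2 motifs do not overlap.
MVD, chr16:88663122-88663271, minus strand: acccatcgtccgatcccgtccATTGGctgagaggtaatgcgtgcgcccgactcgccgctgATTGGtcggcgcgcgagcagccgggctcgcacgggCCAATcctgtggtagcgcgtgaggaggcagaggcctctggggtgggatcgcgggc
FDPS, chr1:155308686-155308835, plus strand: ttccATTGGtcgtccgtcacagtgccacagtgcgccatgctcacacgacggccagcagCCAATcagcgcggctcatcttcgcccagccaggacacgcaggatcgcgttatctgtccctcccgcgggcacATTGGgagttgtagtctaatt
MSMO1, chr4:165327479-165327643, plus strand: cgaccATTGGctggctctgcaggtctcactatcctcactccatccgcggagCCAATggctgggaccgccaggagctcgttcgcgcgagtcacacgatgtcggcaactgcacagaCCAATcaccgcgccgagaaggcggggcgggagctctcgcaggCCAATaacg
STARD4, chr5:111512566-111512715, minus strand: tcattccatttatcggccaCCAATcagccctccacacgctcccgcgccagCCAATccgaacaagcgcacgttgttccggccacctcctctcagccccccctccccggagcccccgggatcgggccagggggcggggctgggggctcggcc
SREBF2, chr22:41832855-41833104, plus strand: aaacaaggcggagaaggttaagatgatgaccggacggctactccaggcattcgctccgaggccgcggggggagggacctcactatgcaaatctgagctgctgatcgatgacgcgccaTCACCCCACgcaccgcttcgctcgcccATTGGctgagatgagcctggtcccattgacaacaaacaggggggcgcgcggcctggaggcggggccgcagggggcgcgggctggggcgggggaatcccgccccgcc
SCD, chr10:100346993-100347142, plus strand: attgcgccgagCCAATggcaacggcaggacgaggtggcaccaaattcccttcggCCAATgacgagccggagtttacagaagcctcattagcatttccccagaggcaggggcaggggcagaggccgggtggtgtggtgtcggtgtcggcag
MVD and FDPS held 3 CCAAT boxes each and MSMO1 held 4. STARD4, SCD and SREBF2 held fewer. In SREBF2 the sterol response element began 133 bases before the start, and the CCAAT box 106 bases before the start. Genes not printed held matches too. LSS, which was lower at day 3, had only the match 150 bases before the start. MVK, which did not pass, had matches 210, 157, 94, 79 and 46 bases before the start. NSDHL and EBP did not pass either and also held several. Whether the number of boxes goes with the RNA difference was not tested. The CCAAT letters were thus found in genes that were lower at day 3 and in SCD, which was higher. FADS1, also higher at day 3, had a window without them. A match is a description of these windows, not a site of binding.

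At day 14 fewer sterol genes were lower in RNA, and HMGCS1 was higher. Of the 32 genes, 5 were lower (ACAT2, FDPS, FDFT1, DHCR7 and SREBF2), against 6.18% of all genes tested, and 2 were higher (HMGCS1 and FADS1), against 8.44%. All 5 had been lower at day 3, so they are 45.5% of the 11 of that day, and FADS1 was higher at both. The median was -0.21 over the sterol enzymes and 0.10 over the fatty acid branch, beside -0.01 over all genes. ACAT2 stood at 104 and 96.6 CPM with sgGal4 and at 70 and 59.1 CPM with sgDDX3 (-0.63 ± 0.09, adjusted p = 4.8e-05). FDFT1 stood at 262 and 258 against 187 and 191 CPM (-0.46 ± 0.07, adjusted p = 5.94e-05). DHCR7 stood at 150 and 140 against 105 and 97.6 CPM (-0.51 ± 0.08, adjusted p = 0.0001). In these 3 genes the guides were as clearly apart as at day 3, and no alternative ended their calls. SREBF2 stood at 560 and 571 against 453 and 475 CPM (-0.29 ± 0.06, adjusted p = 0.0035), a call lost without replicate 2 of sgGal4 (-0.27, adjusted p = 0.0542). FDPS stood at 94.3 and 87.4 against 77.8 and 72.6 CPM (-0.27 ± 0.08, adjusted p = 0.0361). Its groups did not overlap, but the call was lost without replicate 2 of sgDDX3 (-0.23), sgGal4 replicate 1 (-0.21) or replicate 2 of sgGal4 (-0.33), and with the libraries of that day alone (adjusted p = 0.0946). HMGCS1 stood at 90.8 and 87.3 with sgGal4 and at 111 CPM in both sgDDX3 libraries (0.32 ± 0.07, adjusted p = 0.00579), a call lost without replicate 2 of sgGal4 (0.29, adjusted p = 0.102). FADS1 stood at 255 and 251 against 316 and 356 CPM (0.41 ± 0.07, adjusted p = 0.000309). Both genes were higher in each sgDDX3 library than in either control. Leaving out 1 library at a time put the sterol enzyme median at -0.25 to -0.16 and that of the fatty acid branch at 0.10 to 0.13.

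Genes that were apart at day 3 and did not pass at day 14 include IDI1 (64.2 and 66.7 against 62.8 and 60.1 CPM, -0.09 ± 0.09), LSS (-0.04 ± 0.08), SQLE (-0.13 ± 0.07), MVD (-0.21 ± 0.09), MSMO1 (-0.33 ± 0.15), STARD4 (-0.25 ± 0.10, adjusted p = 0.0899) and SCD (0.07 ± 0.06). MVD passed without replicate 1 of sgDDX3 (-0.29), and MSMO1 (-0.58) and SREBF1 (0.26) without replicate 2. MSMO1 also passed without the low-count filter (-0.36, adjusted p = 0.018). The level of IDI1 in the control on that day lay within a few CPM of the sgDDX3 cells. Passing at one day and not at the other does not show a change between days, and none of the 32 genes passed when the difference of day 14 was tested against that of day 3 (edgeR), against 0.164% of all genes in RNA and 0.126% in footprints, either direction. DESeq2 also called 0. The share of all genes with an unadjusted p under 0.05 is not given here, and 2 of the 32 genes in each assay had one. They were IDI1 (0.38 ± 0.12, adjusted p = 0.359) and HMGCS1 (0.25 ± 0.11, adjusted p = 0.565) in RNA and FASN (0.43 ± 0.15, adjusted p = 0.538) and HSD17B7 (-0.59 ± 0.25, adjusted p = 0.655) in footprints, by edgeR. Without sgDDX3 replicate 2 at day 3, PMVK passed in footprints (-0.73, adjusted p = 0.0446).

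At day 0 none of the 32 genes passed the edgeR test between the guides, in RNA, footprints or footprints relative to RNA. Of all genes tested, 0.00547%, 0.0101% and 0.00673% passed there, in either direction. DESeq2 also called 0 of the 32 in each, and 0 had an unadjusted p under 0.05. Small values on the same side as later were already present: 14 of 18 sterol enzymes were below 0 in RNA (median -0.03) and 17 of 18 in footprints (median -0.09), against 49.6% and 51.2% of all genes. The lowest values were -0.22 ± 0.13 in RNA, for MSMO1, and -0.29 ± 0.16 in footprints, for HSD17B7. Whether the differences of day 3 and day 14 exceed those of day 0 was not tested.

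Footprints, the reads of messenger RNA held in ribosomes, showed the same order of branches with fewer calls. At day 3, 4 of the 32 genes were lower (ACAT2, FDFT1, DHCR7 and SREBF2), against 2.25% of all genes tested. All 4 had also been lower in RNA. In the other direction 1.55% of all genes passed and no member did (edgeR or DESeq2); ACACA, at 75.6 and 87.0 against 89.8 and 108 CPM, was the one member there with an unadjusted p under 0.05 (0.29 ± 0.11, adjusted p = 0.185). The median was -0.13 over the sterol enzymes and 0.00 over the fatty acid branch, beside 0.02 over all genes. ACAT2 footprints stood at 152 and 172 CPM with sgGal4 and at 96.7 and 109 CPM with sgDDX3 (-0.65 ± 0.10, adjusted p = 0.00525). FDFT1 stood at 418 and 419 against 333 and 327 CPM (-0.34 ± 0.08, adjusted p = 0.0404). DHCR7 stood at 237 and 250 against 198 and 176 CPM (-0.38 ± 0.09, adjusted p = 0.0408). In each the sgDDX3 libraries were both below the controls. SREBF2 stood at 282 and 268 against 203 and 183 CPM (-0.51 ± 0.10, adjusted p = 0.0155), beside -0.19 in its RNA. Calls were lost when 1 library was left out, which leaves 1 in its group, while the differences kept their sign. Without replicate 2 of sgDDX3 the calls of SREBF2 (-0.44), DHCR7 (-0.30) and FDFT1 (-0.34) were lost. Without replicate 1 of sgGal4 the same genes were lost (-0.50, -0.44 and -0.37). Without replicate 2 of sgGal4 they were lost again (-0.56, -0.35 and -0.36), as was ACAT2 (-0.58). FDFT1 was also lost without replicate 1 of sgDDX3 (-0.36). With the libraries of that day alone 1 gene passed, ACAT2.

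The genes whose RNA was lower at day 3 and whose footprints were nearly level include IDI1, with footprints at 68.7 and 71.9 against 62.8 and 72.5 CPM (-0.05 ± 0.15). MSMO1 footprints stood at 43.3 and 48.1 against 41.6 and 42.7 CPM (-0.11 ± 0.14), and those of STARD4 at 10.7 and 12.5 against 9.77 and 11.7 CPM (-0.10 ± 0.18). Groups overlapped in IDI1 and STARD4, and the gap between the assays passed for none of the 3 (translational efficiency, below, by edgeR or DESeq2). In FADS1 the higher RNA had no counterpart in footprints, at 127 and 125 against 135 and 114 CPM (-0.02 ± 0.10), nor in SCD, at 805 and 781 against 845 and 766 CPM (0.02 ± 0.09). MVD (-0.35 ± 0.11, adjusted p = 0.0973), SQLE (-0.30 ± 0.09, adjusted p = 0.0951) and LSS (-0.27 ± 0.11, adjusted p = 0.186) had footprint differences of the size seen in RNA and did not pass. Without the low-count filter MVD (-0.41, adjusted p = 0.0243) and SQLE (-0.36, adjusted p = 0.0435) passed. PMVK footprints stood at 35.1 and 34.5 against 55.6 and 27.5 CPM, so that 1 sgDDX3 library lay above and the other below the controls (0.24 ± 0.21). Without the lower of the 2, replicate 2 of sgDDX3, PMVK passed (0.67, adjusted p = 0.00853).

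At day 14, 2 genes were lower in footprints, against 1.29% of all genes, and 1 was higher, against 2.11%. ACAT2 stood at 156 CPM in both sgGal4 libraries and at 116 and 102 CPM with sgDDX3 (-0.51 ± 0.10, adjusted p = 0.0151). FDFT1 stood at 460 and 422 against 326 and 340 CPM (-0.41 ± 0.08, adjusted p = 0.0184). FASN stood at 566 and 484 against 824 and 732 CPM (0.57 ± 0.11, adjusted p = 0.0126). The guides did not overlap in any of the 3. FASN RNA on that day stood at 964 and 950 against 1190 and 978 CPM (0.18 ± 0.09, adjusted p = 0.196), where 1 sgDDX3 library was near the controls; without that library, replicate 2, FASN passed in RNA (0.30, adjusted p = 0.00658). Its footprint call was lost without replicate 1 of sgDDX3 (0.47) or replicate 2 of sgGal4 (0.45). That of ACAT2 was lost without replicate 2 of sgDDX3 (-0.43) or replicate 1 of sgGal4 (-0.50), and that of FDFT1 without replicate 1 of sgDDX3 (-0.39), sgDDX3 replicate 2 (-0.44) or replicate 1 of sgGal4 (-0.34). With the libraries of that day alone 0 members passed, and 241 of 18636 genes did. The median over the fatty acid branch was 0.24 and over the sterol enzymes -0.16, beside 0.00 over all genes. ACLY (0.30 ± 0.11), ACACA (0.29 ± 0.11) and FADS1 (0.25 ± 0.09) had values on the side of FASN, with adjusted p from 0.146 to 0.185. DHCR7 (-0.33 ± 0.09, adjusted p = 0.0667) and SREBF2 (-0.33 ± 0.10, adjusted p = 0.091) had values on the other side and did not pass, though both passed without replicate 2 of sgGal4 (-0.43 and -0.46), and DHCR7 by DESeq2 (adjusted p = 0.0493). Without the low-count filter DHCR7 (-0.37), SREBF2 (-0.36) and MSMO1 (-0.44) passed.

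Translational efficiency, that is footprints set against RNA, did not pass for any of the 32 genes at day 3 or day 14 (edgeR). Of all genes tested 4.87% were lower and 0.532% higher at day 3, and 1.33% lower and 0.390% higher at day 14. At an unadjusted p of 0.05, 3 of the 32 passed at day 3 and 2 at day 14 (edgeR). The share of all genes at that threshold is not given here. DESeq2 called 2 at day 3 and 0 at day 14, beside 798 and 285 of all 14853 genes tested. The 2 of day 3 are near the share over all genes. The 2 DESeq2 calls were SREBF2 (-0.34, adjusted p = 0.0318) and FADS1 (-0.35, adjusted p = 0.0392), for which edgeR gave -0.34 ± 0.12 (adjusted p = 0.0957) and -0.34 ± 0.11 (adjusted p = 0.0863). As a ratio of mean CPM, SREBF2 had 0.391 footprints per RNA with sgDDX3 and 0.488 with sgGal4 at day 3, after 0.464 and 0.465 at day 0. FADS1 had 0.434 and 0.541, after 0.542 and 0.545. Both ratios were thus level at day 0 and lower with sgDDX3 at day 3. At day 14 they were 0.418 with sgDDX3 and 0.432 with sgGal4 for SREBF2 (-0.03 ± 0.12 in efficiency) and 0.449 and 0.498 for FADS1 (-0.15 ± 0.11), gaps smaller than those of day 3. These ratios have no SD since nothing ties an RNA library to a footprint library by its number. Without sgDDX3 footprint replicate 1 FADS1 passed in edgeR as well (-0.45, adjusted p = 0.02). IDI1 had the smallest p on the other side at day 3 (0.41 ± 0.18, adjusted p = 0.233), and FASN at day 14 (0.40 ± 0.16, adjusted p = 0.265).

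**Figure D3:**
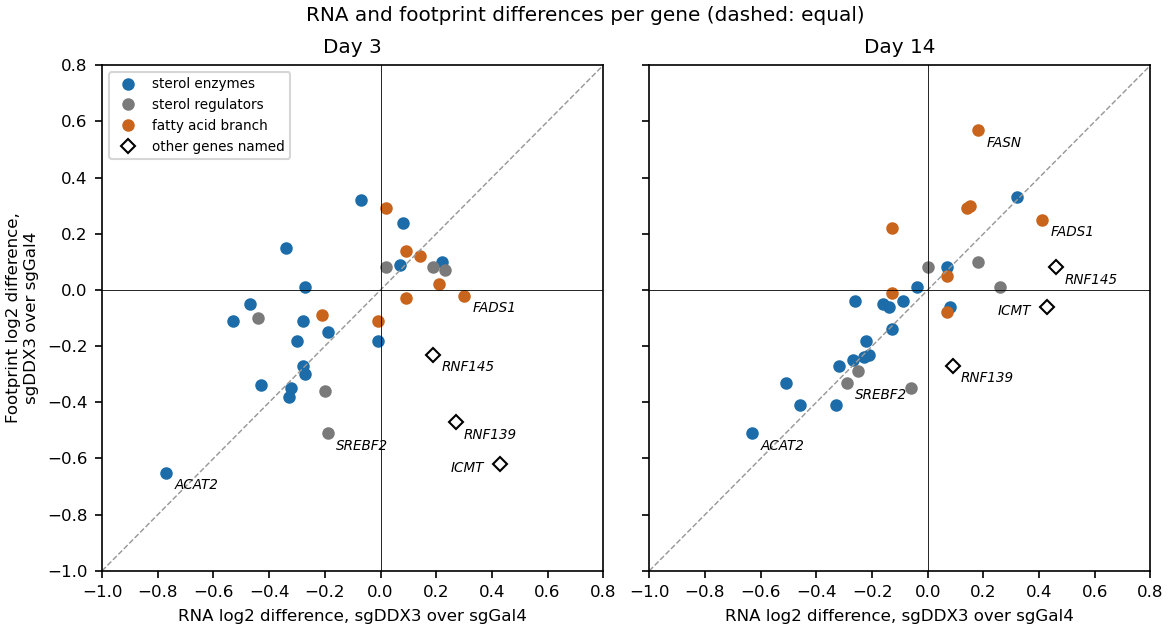
Log2 difference between the guides in RNA (horizontal) and in footprints (vertical) at day 3 and day 14, 1 point a gene, with the line of equal difference dashed. ACAT2 lies close to the line at both days (-0.77 and -0.65 at day 3), FASN lies above it at day 14 (0.18 and 0.57), and ICMT, RNF139 and RNF145 (open) lie below it at day 3.

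From day 0 to day 3, 5 of the 18 sterol enzymes fell in RNA with the control guide and 13 of 18 with sgDDX3; the difference between the arms was tested only as the guide difference of each day. With sgGal4, 9 of the 32 genes fell, against 2.27% of all genes, and 2 rose, against 3.41%. The sterol enzymes among them were ACAT2 (-0.32 ± 0.08), HMGCS1 (-0.39 ± 0.07), HSD17B7 (-0.51 ± 0.13), IDI1 (-0.44 ± 0.08) and SQLE (-0.37 ± 0.07), beside INSIG1 (-0.44 ± 0.09), STARD4 (-0.30 ± 0.09), ACLY (-0.26 ± 0.08) and FADS1 (-0.62 ± 0.07). FADS2 (0.49 ± 0.10) and SCAP (0.27 ± 0.07) rose. The count of 11 in all was smaller without any 1 of the sgGal4 libraries of either day, each fit leaving 1 library in its group. With sgDDX3, 17 genes fell, against 9.42% of all genes, and 3 rose, against 11.1%. They included 13 of the 18 sterol enzymes, from ACAT2 (-0.98 ± 0.09) and IDI1 (-0.76 ± 0.09) to HMGCS1 (-0.29 ± 0.07). The count of 20 was smaller without sgDDX3 day 0 replicate 2, which leaves 1 library in that group. The median over the sterol enzymes was -0.21 with sgGal4 and -0.50 with sgDDX3, beside 0.01 and -0.01 over all genes.

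From day 0 to day 14, 12 genes fell with sgGal4 (8.55% of all genes) and 3 rose (7.70%), and 12 fell with sgDDX3 (12.8%) and 1 rose (13.4%). These changes share their day 0 libraries with those of day 3. The sgGal4 count of 15 was smaller without any 1 of the sgGal4 libraries of either day, each fit leaving 1 library in its group. IDI1 (-0.61 ± 0.09 and -0.55 ± 0.09), STARD4 (-0.62 ± 0.09 and -0.82 ± 0.09), SC5D (-0.56 ± 0.13 and -0.77 ± 0.14) and ELOVL6 (-0.48 ± 0.07 and -0.47 ± 0.08) fell in both arms, sgGal4 given first. In 3 genes the control fell and the sgDDX3 cells stood near their day 0 level: HMGCS1 (-0.36 ± 0.07 with sgGal4, -0.01 ± 0.07 with sgDDX3), FADS1 (-0.50 ± 0.07 and -0.04 ± 0.07) and INSIG1 (-0.43 ± 0.09 and -0.05 ± 0.09). INSIG1 RNA stood at 152 and 149 CPM at day 0 and 117 and 107 CPM at day 14 with sgGal4, and at 141 and 136 and then 131 and 137 CPM with sgDDX3. The sgDDX3 libraries of day 14 lay above the controls of that day (0.26 ± 0.09, adjusted p = 0.0511 between the guides), and INSIG1 passed with DESeq2 size factors (0.26, adjusted p = 0.0495) or without replicate 1 of sgDDX3 (0.30, adjusted p = 0.0459). In the opposite sense FDFT1 (-0.10 ± 0.06 and -0.54 ± 0.06) and DHCR7 (-0.09 ± 0.07 and -0.57 ± 0.08) fell with sgDDX3 and did not pass with sgGal4. SREBF2 rose with sgGal4 (0.20 ± 0.06) and stood at -0.02 ± 0.06 with sgDDX3.

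**Figure D4:**
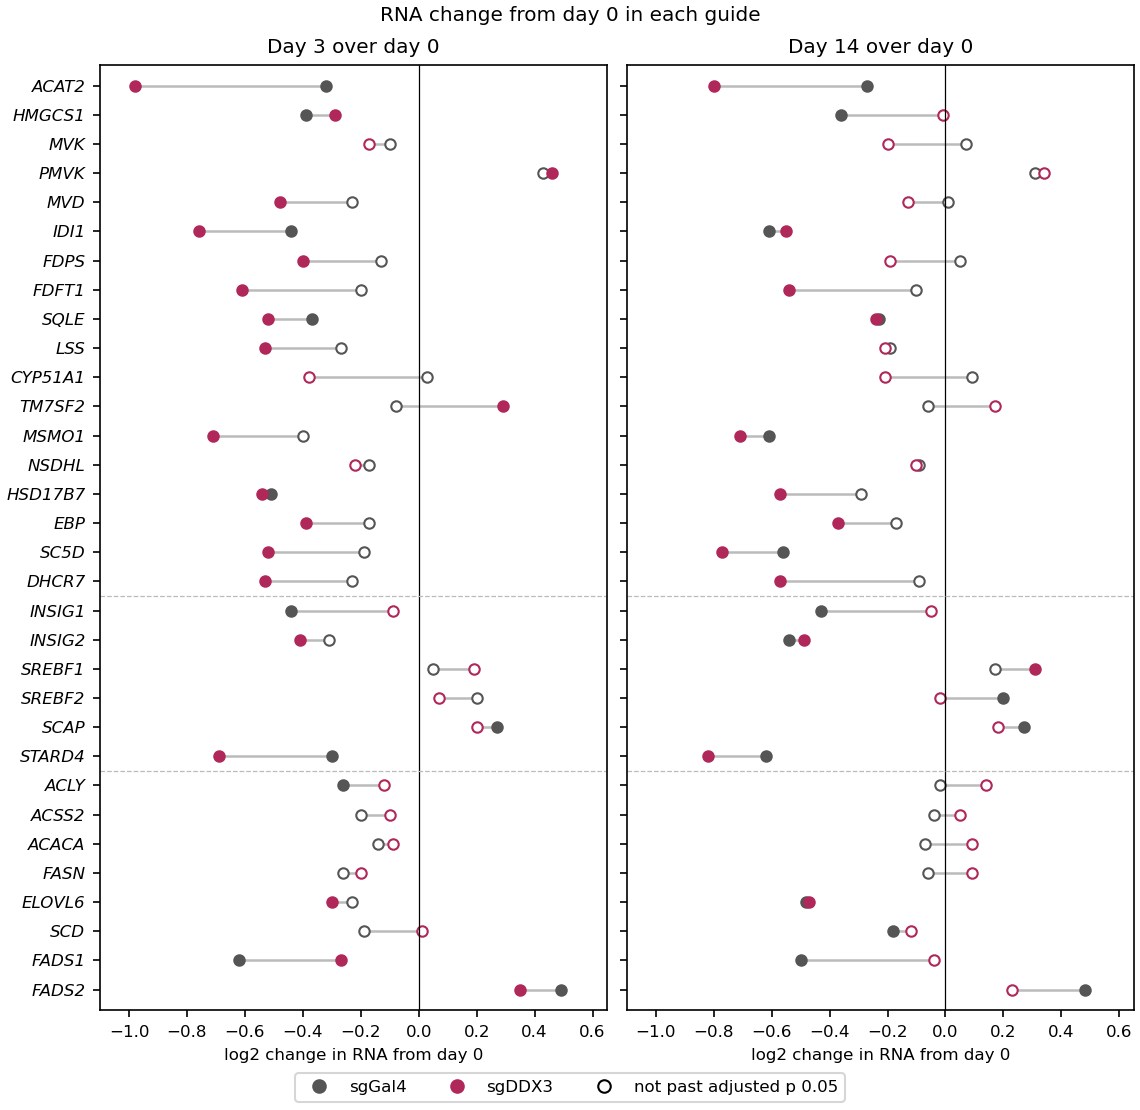
Log2 change of RNA from day 0 to day 3 (left) and to day 14 (right) for the 32 genes, sgGal4 grey and sgDDX3 red, filled where the gene passed at an adjusted p of 0.05. In ACAT2 the red points lie at -0.98 and -0.80 and the grey ones at -0.32 and -0.27, and in HMGCS1, INSIG1 and FADS1 the red points of day 14 lie near 0.

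Genes around the pathway were taken from 5 further lists. Among genes of SREBP processing and of the degradation of sterol enzymes, the ubiquitin ligases RNF139 (-0.76 ± 0.16, adjusted p = 0.0038) and RNF145 (-0.44 ± 0.13, adjusted p = 0.0457) were lower in translational efficiency at day 3, beside 4.87% of all genes. At day 14 neither passed in efficiency (-0.36 ± 0.16 and -0.37 ± 0.13, adjusted p = 0.351 and 0.175, edgeR). RNF145 was higher in RNA at day 14 (0.46 ± 0.08, adjusted p = 0.000341). NFYC, a subunit of NF-Y, was lower in RNA at both days (-0.24 ± 0.07 and -0.23 ± 0.07, adjusted p = 0.0304 and 0.0378), and NFYA, another subunit, was higher in footprints at day 3 (0.41 ± 0.10, adjusted p = 0.0454). RNF139 and NFYC are named outside the rule for such genes, after their values were seen.

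Of 10 genes of the isoprenoid side branches, 1 was higher and 2 were lower in RNA at day 3, and 1 and 1 at day 14. ICMT, the methyltransferase of prenylated proteins, stood at 98.4 and 94.0 against 128 and 132 CPM in RNA at day 3 (0.43 ± 0.07, adjusted p = 0.000208) and at 24 and 23.2 against 16.2 and 14.5 CPM in footprints (-0.62 ± 0.14, adjusted p = 0.0252). RNA was higher and footprints lower in both sgDDX3 libraries, and the efficiency of ICMT was lower by 1.08 ± 0.14 (adjusted p = 8.19e-06). At day 14 its RNA was higher by 0.43 ± 0.07 (adjusted p = 0.000218). GGPS1, which makes geranylgeranyl pyrophosphate, was lower in RNA at both days (-0.30 ± 0.09 and -0.36 ± 0.10, adjusted p = 0.0372 and 0.0182), and DHDDS, of dolichol synthesis, at day 3 (-0.29 ± 0.09, adjusted p = 0.0277).

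Of 14 genes of sterol uptake, export and esterification, 13 were tested in RNA, where 2 were lower at day 3 and 4 at day 14. TMEM97, a sterol-responsive membrane protein, stood at 167 and 179 against 131 and 129 CPM at day 3 and at 162 and 168 against 106 and 124 CPM at day 14 (-0.41 ± 0.08 and -0.52 ± 0.08, adjusted p = 0.000866 and 9.14e-05). Its groups did not overlap at either day, and its footprints were lower at day 3 (-0.46 ± 0.11, adjusted p = 0.0386). SCARB1, a lipoprotein receptor, was lower in RNA at both days (-0.24 ± 0.08 and -0.35 ± 0.08, adjusted p = 0.0381 and 0.00322), and the oxysterol receptor gene NR1H3 at day 14 (-0.51 ± 0.12, adjusted p = 0.00485). The fourth gene of day 14, LRP8 (-0.26 ± 0.08, adjusted p = 0.0385), is named outside the rule. Of 19 further genes of fatty acid synthesis, elongation and activation, 16 were tested in RNA, with 1 higher and 2 lower at day 3 and 1 higher and 5 lower at day 14. FADS3, a relative of FADS1, was higher at day 3 (0.49 ± 0.09, adjusted p = 0.000683). ME1, the malic enzyme that makes NADPH, was lower at day 14 (-0.60 ± 0.13, adjusted p = 0.00379), and the elongase ELOVL7 at both days (-0.65 ± 0.18 and -0.86 ± 0.20, adjusted p = 0.0186 and 0.00562). Of 12 genes of fatty acid oxidation, 1 was higher and 2 were lower at day 3, and 1 and 1 at day 14. CPT1A, which brings fatty acids to the mitochondria, was lower at both days (-0.46 ± 0.12 and -0.41 ± 0.13, adjusted p = 0.0145 and 0.0409). At day 3 the regulator PPARA was higher (0.38 ± 0.10, adjusted p = 0.0166) and ETFA, an electron carrier, lower (-0.26 ± 0.07, adjusted p = 0.0188). Over all genes, 6.39% were lower and 7.68% higher in RNA at day 3, and 6.18% and 8.44% at day 14.

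Some values are uncertain because the setting used for strands and for reads that align in several places is not given in the sources used here. ACAT2, on chromosome 6 at 159762045 to 159779112 of GRCh38, overlaps TCP1, which differed in RNA at day 3 by -0.18 ± 0.08 and at day 14 by -0.17 ± 0.08 (adjusted p = 0.161 and 0.193). MVK overlaps MMAB, which was lower at day 14 in RNA (-0.45 ± 0.10, adjusted p = 0.00271) and footprints (-0.69 ± 0.16, adjusted p = 0.0319), IDI1 overlaps WDR37 (0.10 ± 0.09 in RNA at day 3, adjusted p = 0.545), and FADS1 and FADS2 overlap each other on chromosome 11. Reads from such pairs cannot be told apart without strand. IDI1, FDPS, CYP51A1, HSD17B7 and SCD have pseudogenes that hold counts of their own, mostly in footprints, whose reads are short: SCDP1 held 89.6 to 136 CPM there against 6.6 to 9.68 CPM in RNA, and CYP51A1P2 held 18.4 to 31.7 CPM against 2.35 to 4.19 CPM. CYP51A1 itself stood at 3.45 to 7.02 CPM in RNA.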

How the data were processed

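Ribosome footprints and rRNA-depleted cytosolic RNA were sequenced in 12 libraries each. The deposited values are counts, whole numbers for each gene without normalization. The tools STAR 2.7.5a, Bowtie2 2.4.1, cutadapt 3.4 and DESeq2, and the build GRCh38, are named per the submitters' processing notes, without role or order. Counter, annotation and strand setting: not given in the sources used here. The 45 second copies of X and Y shared genes were left out of 58037 rows, and 56948 of the other 57992 had a symbol.

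Counts were filtered with filterByExpr (minimum count 10), scaled by TMM within each assay and tested with edgeR 4.0.16 quasi-likelihood F-tests in R 4.3.3 over all 12 libraries of an assay (18287 genes in RNA, 19780 in footprints). Translational efficiency was the interaction of guide and assay over 24 libraries (14853 genes). P-values were adjusted by Benjamini-Hochberg over all genes tested, with a threshold of 0.05. The biological coefficient of variation was 6.13% in RNA and 9.99% in footprints, so footprint differences are less precise. Alternatives were DESeq2 1.42.0, its size factors, no filter, a replicate block, the libraries of 1 day alone and leaving out each library. The scripts were tested on simulated data. Members and lists were chosen with earlier results of these data known. All 32 members are named, and of each other list up to 3 genes that passed in RNA or footprints, smallest p first. Some genes and their overlaps are not reported here.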

Additional observations from a re-analysis of the deposited data

How the results depend on the processing

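Of 27 calls for members between the guides at day 3 or day 14, 9 held in every alternative run, 18 were lost in at least 1 and 0 changed sign. The calls for changes from day 0 were not among the 27. The libraries behind each loss stand beside it in the report. Leaving out 1 library at a time gave 6 to 12 passing members in RNA at day 3 and 4 to 9 at day 14, 0 to 3 and 1 to 4 in footprints, 0 to 1 in translational efficiency at day 3, and 0 to 1 for footprints between the days. Changes from day 0 gave 1 to 8 (day 3) and 6 to 9 (day 14) with sgGal4, and 12 to 18 and 10 to 14 with sgDDX3. The sterol enzyme medians ranged from -0.33 to -0.21 and from -0.25 to -0.16 in RNA at days 3 and 14, and from -0.17 to -0.14 and from -0.18 to -0.10 in footprints. Those of the fatty acid branch ranged from 0.04 to 0.12, 0.10 to 0.13, -0.02 to 0.00 and 0.17 to 0.26.

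Without the low-count filter the fatty acid medians were 0.07 (RNA, day 14), -0.06 and 0.21 (footprints, days 3 and 14), the sterol median in footprints at day 3 was -0.19, and 6 members passed in footprints at day 14. With the libraries of 1 day alone 1 member passed in footprints at day 3 and 0 at day 14. Those fits hold fewer samples. DESeq2 called 2 members in translational efficiency at day 3, beside 798 of all 14853 genes. The cause of these moves was not tested. Over all genes the count in footprints went from 752 to 1594 at day 3 without the filter, and from 672 to 1221 at day 14. With 1 day alone it went to 151 and 241, and in RNA at day 14 from 2674 to 1495. At day 0 the libraries of that day alone gave more calls, from 1 to 74 in RNA and from 2 to 124 in footprints.

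Replicate numbers were not shown to pair the samples (correlations of deviations from -0.462 to 0.339 in RNA and -0.452 to 0.435 in footprints). With the replicate block 12 and 7 members passed in RNA at days 3 and 14, 4 and 4 in footprints, and 0 in translational efficiency; SREBF2 at day 3 in RNA was lost and MSMO1 at day 14 in footprints passed (-0.40, adjusted p = 0.0492). With 2 libraries a group, depth and number limit what small differences could show.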
